A study of Mus musculus with 12 samples.

Results

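The genes of extracellular ATP and adenosine handling were followed through stromal cells of mouse mammary tumours. They were chosen by symbol and comprised 9 of 55487 genes in the deposited table: the ectonucleotidase genes Entpd1, Entpd2, Nt5e, Enpp1 and Enpp3, the adenosine deaminase gene Ada, and the adenosine receptor genes Adora1, Adora2a and Adora2b. All 9 passed the filter on low values. The cells came from spontaneous tumours of 3 untreated MMTV-PyMT mice on the FVB background, aged 10 weeks, whose mammary epithelium expresses polyoma middle T, an oncogene under the control of the mouse mammary tumour virus promoter. Every library therefore carries the same transgene and strain, and no tumour-free mammary tissue was part of the comparison. From each mouse, live PDGFRb-positive cells without CD45, CD31 or EPCAM on their surface were sorted into 4 populations of cancer-associated fibroblasts. The vcaf gate took cells that lacked Ly6C and PDGFRa and carried CD146. The icaf gate took Ly6C-positive cells. Both m2caf gates took PDGFRa-positive cells without Ly6C or CD146, which carried NCAM in m2cafpos and lacked it in m2cafneg. Each population was sequenced once per mouse, and the mice are numbered 27, 30 and 31, which gave 12 libraries. By its title, the series concerns senescent stroma and suppressed immunity in breast cancer.

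ATP that leaves a stressed or dying cell signals through P2X and P2Y receptors until enzymes on the cell surface degrade it. Entpd1 (CD39) takes ATP and ADP down to AMP, Entpd2 prefers ATP and leaves mainly ADP, Enpp1 and Enpp3 cut ATP to AMP and pyrophosphate, and Nt5e (CD73) makes adenosine from AMP. Adenosine then acts on G protein-coupled receptors that lower (Adora1) or raise (Adora2a, Adora2b) cyclic AMP, until it is taken up by cells or deaminated to inosine by Ada, and in tumours it is known for restraining T cells and for widening blood vessels.

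Values are CPM, the reads of a gene per 1000000 reads assigned to genes, and libraries held 43898839 to 55363203 such reads. A single read stood for 0.0181 to 0.0228 CPM. Transcripts of the sorted proteins followed the gates: Mcam (CD146) averaged 269 ± 25.1 CPM in vcaf and at most 9.82 ± 8.67 CPM elsewhere, Ly6c1 averaged 1106 ± 140.0 CPM in icaf and at most 66.3 ± 13.9 CPM elsewhere, and Ncam1 averaged 585 ± 20.3 CPM in m2cafpos and 31.1 ± 5.63 CPM in m2cafneg (SD, n = 3 each). Pdgfra averaged 6.73 ± 2.07 CPM in vcaf and at least 403 ± 44.8 CPM elsewhere, Pdgfrb averaged at least 188 ± 42.5 CPM in every population, and transcripts of the excluded proteins averaged at most 546 ± 171 CPM (Epcam), 69.4 ± 25.5 CPM (Pecam1, CD31) and 4.83 ± 1.78 CPM (Ptprc, CD45), each in vcaf. The vcaf libraries carried pericyte and smooth muscle transcripts (10 genes, led by Rgs5 and Acta2, 36674 to 58164 summed CPM, at most 607 in any other library) more than fibroblast transcripts (8 genes, led by Col1a1 and Col1a2, 7243 to 9340.3, at least 55326 in any other library). Transcripts of gated-out cells were present and uneven. The 12 epithelial markers, led by Csn3 and Krt18 and all above 1 CPM on average, summed to 7228 to 15010.5 CPM in vcaf, 964 to 2849.8 in icaf, 629 to 2700.5 in m2cafpos and 5304 to 11525 in m2cafneg. The 11 macrophage markers, led by Cd14 and Lyz2, summed to 533 to 1315, 89.97 to 208, 146 to 231 and 579 to 944 CPM in the same order of populations, and the 10 endothelial markers, led by Esam and Tek, to 844 to 955, 144 to 254, 26.4 to 66.3 and 86.98 to 337 CPM. The 7 Schwann cell markers, led by Sox10 and Mbp, summed to 144 to 178, 23.5 to 42.8, 24.3 to 42.1 and 71.8 to 137 CPM. The 10 T, B and NK cell markers each averaged below 1 CPM and summed to at most 5.64 CPM in a library, Cd3e and Nkg7 the most abundant. In such bulk libraries, fewer cells of a kind and less RNA per cell cannot be told apart.

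The 3 main comparisons were made with limma on log2(CPM + 1), with Benjamini-Hochberg adjustment across the 15456 genes that reached 1 CPM or more in 3 or more libraries and a threshold of 0.05 on the adjusted p. Each of these comparisons uses some of the same libraries as another, so their results are not independent. The fit had no term for the mouse, although all populations came from the same 3 mice. Its standard errors and adjusted p therefore leave out the pairing, and the mouse as a block was an alternative. Log2 fold changes are first population minus second, with standard errors. Below, icaf against both m2caf populations means against the mean of m2cafpos and m2cafneg. Where a gene is called higher or lower in vcaf or icaf with no second population named, these means are the reference. Of the 9 genes, 2 were higher and 4 lower in vcaf than in the mean of the other 3 populations, where 53.3% of all genes tested were higher, 14.2% lower and 67.5% changed in either direction. In icaf against the mean of m2cafpos and m2cafneg, 4 were higher and 3 lower (12.1% and 14.2% of all genes, 26.3% in either direction). In m2cafpos against m2cafneg, 5 were lower and 0 higher by limma (22.6% of all genes lower, 3.51% higher and 26.1% either). At an unadjusted p under 0.05 the counts were 6 and 0, while edgeR and DESeq2 on the recovered reads each called 1 higher, Ada. The median log2 fold change of all genes tested was 0.38 in the first comparison, -0.01 in the second and -0.23 in the third, against -0.38, 0.24 and -0.78 for the 9 genes. Scaling by trimmed mean of M values (TMM) moved the median of all genes by -0.36 in the first and by 0.22 in the third comparison. With TMM, all genes split into 23.8% higher and 24.3% lower in the first and into 7.73% higher and 8.96% lower in the third, and the 9 genes into 2 higher and 5 lower and into 1 higher and 4 lower. With the mouse as a block, the 9 genes split into 3 higher and 4 lower, 4 and 4, and 0 and 5. All genes then split into 55.6% and 15.1%, 14.3% and 18.7%, and 4.68% and 28.5%.

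**Figure D1:**
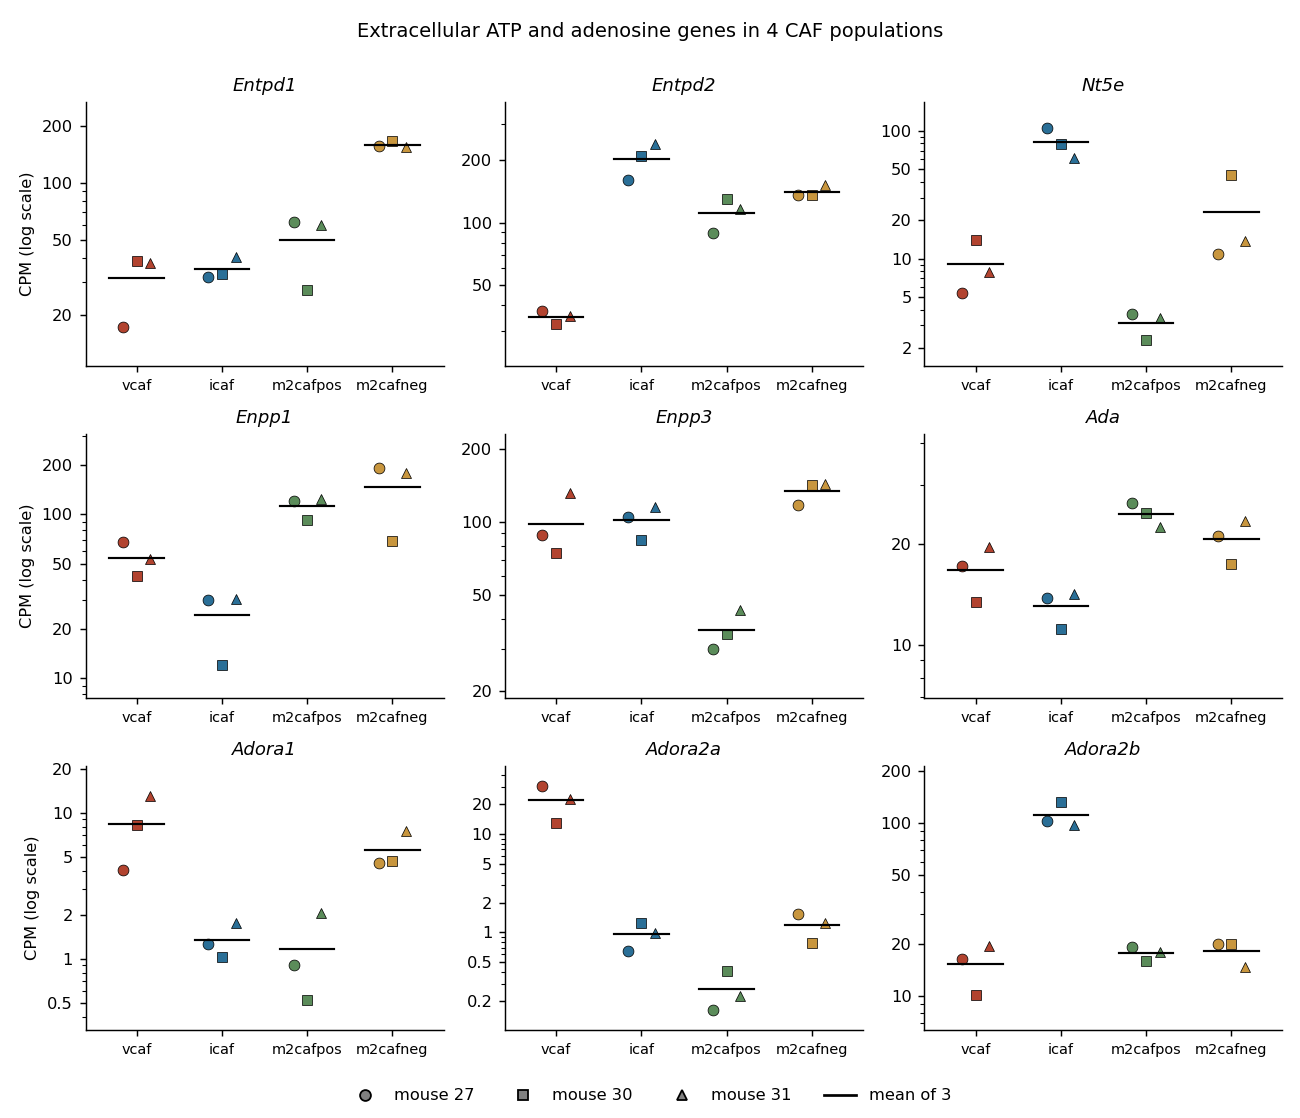
CPM of each of the 9 genes in the 12 libraries, on log axes that differ between panels. Points are libraries, shaped by mouse, and bars are means of 3. Adora2a is separated in vcaf, Nt5e and Adora2b in icaf, Entpd1 in m2cafneg, and Enpp3 is low in m2cafpos.

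The genes that start the breakdown of ATP to AMP, Entpd1 and Entpd2, peaked in different populations: Entpd1 in m2cafneg and Entpd2 in icaf, with vcaf lowest for both. Entpd1 (ENSMUSG00000048120, GRCm38 chr19:40612366-40741602, plus strand) stood at 17.4, 38.9 and 37.9 CPM in vcaf, 31.8, 33.2 and 40.6 in icaf, 62.2, 27.2 and 59.8 in m2cafpos and 156, 166 and 154 in m2cafneg, for mice 27, 30 and 31 in that order here and below. The 3 m2cafneg libraries lay above all 9 others, which overlapped with each other. Entpd1 was lower in m2cafpos than in m2cafneg with a log2 fold change of -1.74 ± 0.32 (limma adjusted p = 0.00365), lower in icaf than in the mean of both m2caf populations (-1.28 ± 0.27, adjusted p = 0.00441) and lower in vcaf than in the mean of the others (-1.09 ± 0.26, adjusted p = 0.00279). Without the vcaf library of mouse 27, the lowest of the 12, that last value was -0.72 (adjusted p = 0.0228, range over all alternatives 3.31e-07 to 0.0228). Pair by pair on the deposited scale, limma did not separate vcaf, icaf and m2cafpos. The adjusted p was 0.538 for vcaf against icaf, 0.0891 for vcaf against m2cafpos and 0.409 for icaf against m2cafpos. Vcaf was called lower than m2cafpos under TMM (-1.17, adjusted p = 0.0103) and median-of-ratios scaling and by edgeR and DESeq2. That call was also made without the m2cafpos library of mouse 30 (adjusted p 0.000786 to 0.4 over all alternatives). Macrophages and endothelial cells are known to carry Entpd1. The macrophage markers summed to means of 1030.1 CPM in vcaf, 145 in icaf, 175 in m2cafpos and 738 in m2cafneg, and the endothelial markers to 916, 213, 50.8 and 192 CPM in the same order. Of 10 macrophage markers tested, 9 were lower in m2cafpos than in m2cafneg (22.6% of all genes tested), as Entpd1 was. In icaf, 9 were lower than in the mean of both m2caf populations (14.2%), again as Entpd1 was. Against m2cafpos alone, 1 of the 10 was lower in icaf (8.86%) and 9 did not pass, and neither did Entpd1. In vcaf, 9 were higher than in the mean of the others (53.3%), where Entpd1 was lower. Of 10 endothelial markers, 7 were lower in m2cafpos than in m2cafneg (22.6%). In icaf, 2 were lower (14.2%) and 1 higher (12.1%), and in vcaf 8 were higher (53.3%) and 1 lower (14.2%). Their part in the Entpd1 values was not tested.

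Entpd2 (ENSMUSG00000015085, GRCm38 chr2:25395874-25401321, plus strand) stood at 37.2, 32.4 and 35.3 CPM in vcaf, 160.1, 211 and 239.5 in icaf, 88.8, 130.1 and 116 in m2cafpos and 136, 136 and 152 in m2cafneg. All vcaf libraries lay below all others and all icaf libraries above all others. The log2 fold change was -2.04 ± 0.13 in vcaf against the other 3 populations (limma adjusted p = 6.63e-08) and 0.68 ± 0.14 in icaf against both m2caf populations (adjusted p = 0.00289). Between m2cafpos and m2cafneg it was -0.35 ± 0.16 and did not pass the test (adjusted p = 0.119, 95% interval -0.70 to -0.01). The step between icaf and its nearest neighbour m2cafneg was 0.51 ± 0.16 (adjusted p = 0.0303) and lost its call without the filter on low values and without the icaf library of mouse 30 or 31 or the m2cafneg library of mouse 27 or 30 (adjusted p 0.00112 to 0.113 over all alternatives). Entpd2 overlaps Npdc1 on the same strand over 612 exon bases, 28.8% of those of Entpd2, so reads there may have been split or shared. Npdc1 stood at 190.1 ± 14.01 CPM in vcaf, 304 ± 24.8 in icaf, 328 ± 10.9 in m2cafpos and 282 ± 21.2 in m2cafneg, with a log2 fold change of -0.68 ± 0.08 in vcaf and -0.0018 ± 0.09 in icaf, and its part in the Entpd2 values was not tested.

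Per kilobase of exon, Entpd2 was the most abundant of the 9 transcripts in every population by its mean, at 16.4 ± 1.12 CPM per kb in vcaf, where Enpp3 at 16.3 ± 5.004 was not separable from it, 95.6 ± 18.9 in icaf, 52.5 ± 9.86 in m2cafpos and 66.4 ± 4.22 in m2cafneg (SD, n = 3 each). Entpd2 made up 74.8% ± 8.80 of the summed CPM per kb of Entpd1 and Entpd2 in vcaf, 93.7% ± 0.703 in icaf, 85.03% ± 6.96 in m2cafpos and 69.96% ± 1.93 in m2cafneg. By this measure, the ADP-leaving enzyme had the larger transcript pool of the pair in all 12 libraries, with its lowest mean shares in vcaf and m2cafneg. That order rests on dividing by exon length, 5580 bases for Entpd1 and 2128 for Entpd2, the latter including the bases shared with Npdc1. In CPM, Entpd1 lay above Entpd2 in every m2cafneg library (156, 166 and 154 against 136, 136 and 152) and in the vcaf libraries of mice 30 and 31.

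Nt5e (ENSMUSG00000032420, GRCm38 chr9:88327197-88372092, plus strand), which encodes CD73, the enzyme that makes adenosine from AMP, was highest in icaf and lowest in m2cafpos. It stood at 5.43, 13.9 and 7.92 CPM in vcaf, 105, 79.2 and 61.5 in icaf, 3.67, 2.32 and 3.44 in m2cafpos and 10.9, 45.4 and 13.7 in m2cafneg. All icaf libraries lay above all others and all m2cafpos libraries below all others, while vcaf and m2cafneg overlapped. The log2 fold change was 3.16 ± 0.38 in icaf against both m2caf populations (limma adjusted p = 7.12e-05) and -2.30 ± 0.44 in m2cafpos against m2cafneg (adjusted p = 0.00464). In vcaf against the other 3 it was -0.99 ± 0.36 (adjusted p = 0.0283), a call that ended when the vcaf library of mouse 27 (0.157) or 31 (0.0848) was left out and without the filter on low values (0.0805, range over all alternatives 0.00104 to 0.157). Vcaf was higher than m2cafpos (1.21 ± 0.44, adjusted p = 0.028), a call that ended with a pseudocount of 4 CPM, without the filter, under TMM and median-of-ratios scaling, by edgeR and DESeq2 and without the vcaf library of mouse 30 or 31 or the m2cafpos library of mouse 30 (adjusted p 0.00314 to 0.197 over all alternatives).

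The m2cafneg library of mouse 30 stood apart for Nt5e, at 45.4 CPM against 10.9 and 13.7 CPM in the other 2 of that population. Without it, the log2 fold change of m2cafpos against m2cafneg was -1.69 (limma adjusted p = 0.00708; 3.71e-06 to 0.021 over all alternatives, edgeR and DESeq2 included), and that of icaf against m2cafneg was 2.61, against 2.01 ± 0.44 with it. The same library was also the highest of its population for Ly6c1, the transcript of the icaf gate, at 81.3 CPM against 53.9 and 63.7 CPM, and for the nucleotide-sugar receptor gene P2ry14, at 55.4 CPM against 10.5 and 8.36 CPM. It was the lowest for Enpp1. The part of these differences in the results was not tested beyond leaving the library out.

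The pyrophosphatase genes Enpp1 and Enpp3 lie 60246 bases apart on chromosome 10, on the same strand, and differed in their patterns. Enpp1 (ENSMUSG00000037370, GRCm38 chr10:24637914-24712159, minus strand), also known for limiting mineralisation through pyrophosphate and for degrading extracellular cGAMP, stood at 67.5, 42.1 and 53.3 CPM in vcaf, 30.1, 12.1 and 30.5 in icaf, 121, 92.7 and 125 in m2cafpos and 193, 68.6 and 179.9 in m2cafneg. The icaf libraries lay below all others, the vcaf libraries came next, and both m2caf populations overlapped with each other. The log2 fold change was -2.39 ± 0.34 in icaf against both m2caf populations (limma adjusted p = 0.000234). It did not pass in vcaf against the other 3 (-0.38 ± 0.32, adjusted p = 0.303), though DESeq2 called it (-0.86, adjusted p = 0.0126, range over all alternatives 0.0126 to 0.635), nor in m2cafpos against m2cafneg (-0.26 ± 0.39, adjusted p = 0.662).

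Enpp3 (ENSMUSG00000019989, GRCm38 chr10:24772406-24842823, minus strand), known as CD203c on human basophils, stood at 88.4, 74.4 and 132 CPM in vcaf, 105, 84.6 and 116 in icaf, 30.1, 34.4 and 43.6 in m2cafpos and 118, 142 and 144 in m2cafneg. The m2cafpos libraries lay below all others, vcaf overlapped with icaf and m2cafneg, and icaf lay just below m2cafneg. Enpp3 was lower in m2cafpos than in m2cafneg with a log2 fold change of -1.89 ± 0.20 (limma adjusted p = 0.000313). In icaf against both m2caf populations the value was 0.53 ± 0.17 (adjusted p = 0.0397), a difference from a mean of populations on either side of icaf. That call ended without the filter on low values and without the icaf library of mouse 27 or 31, the m2cafpos library of mouse 27 or 30 or the m2cafneg library of mouse 27 (adjusted p 0.00514 to 0.14 over all alternatives). In vcaf against the other 3, the value was 0.28 ± 0.16 (adjusted p = 0.153), turned to -0.13 under TMM scaling and passed with the mouse as a block (adjusted p = 0.0474, range over all alternatives 0.041 to 0.814). The 9 mast cell and basophil markers, mostly Kit and Hdc, summed to 82.8 to 179.6 CPM in vcaf, 12.2 to 33.5 in icaf, 14.2 to 37.7 in m2cafpos and 64.2 to 137 in m2cafneg, and 5 of the 9 averaged below 1 CPM over all libraries. Of the 3 markers tested, 2 were lower in m2cafpos than in m2cafneg (22.6% of all genes tested), as Enpp3 was. In icaf against both m2caf populations, where Enpp3 was called higher, 0 of the 3 were called higher or lower. In vcaf against the other 3 populations, 1 was higher, where Enpp3 did not pass. The part of such cells in the Enpp3 values was not tested.

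Ada (ENSMUSG00000017697, GRCm38 chr2:163726584-163750239, minus strand), which removes adenosine by deaminating it to inosine, had levels within a narrow band. It stood at 17.2, 13.4 and 19.5 CPM in vcaf, 13.8, 11.1 and 14.2 in icaf, 26.5, 24.7 and 22.5 in m2cafpos and 21.1, 17.5 and 23.4 in m2cafneg. The icaf libraries lay below those of both m2caf populations, with a log2 fold change of -0.75 ± 0.14 (limma adjusted p = 0.0019), while neighbours in the order of levels overlapped. The remaining comparisons depended on how libraries were scaled. In vcaf against the other 3, the log2 fold change was -0.17 ± 0.13 on the deposited scale (adjusted p = 0.273) and -0.55 under TMM scaling (adjusted p = 0.00265, range over all alternatives 0.000254 to 0.868). In m2cafpos against m2cafneg it was 0.25 ± 0.16 (adjusted p = 0.284), and 0.50 under TMM scaling (adjusted p = 0.0406, range over all alternatives 0.0151 to 0.608).

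**Figure D2:**
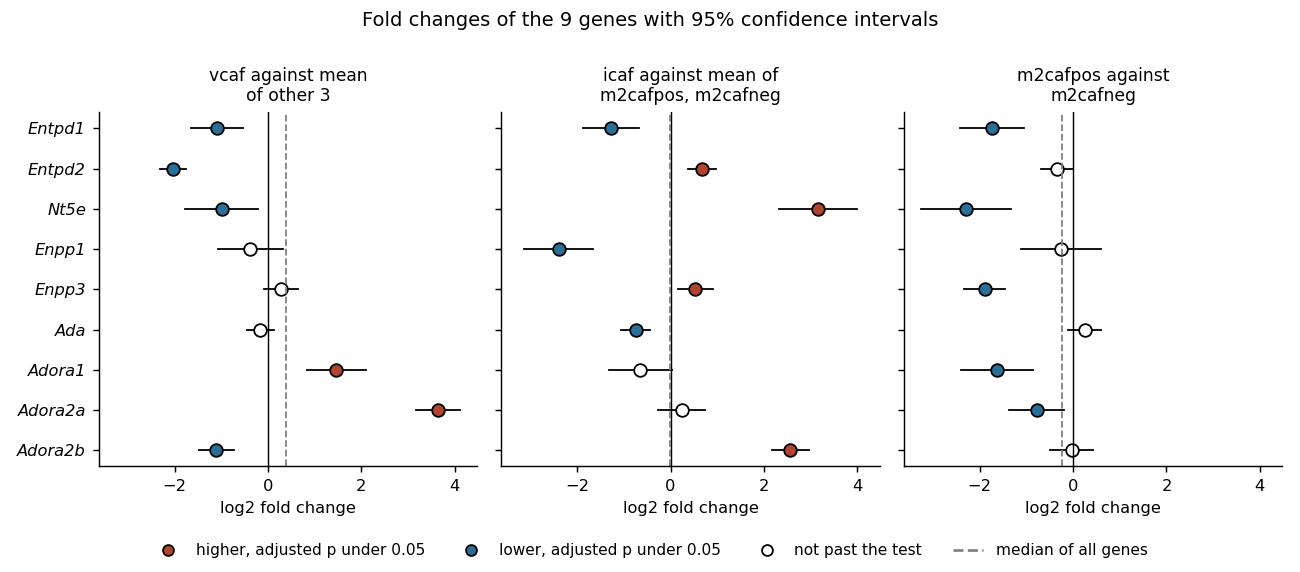
Log2 fold changes of the 9 genes in the 3 main comparisons (points) with 95% confidence intervals from limma (lines). Filled points passed an adjusted p of 0.05, and dashed lines mark the median of all genes tested. Adora2a reached 3.64 in vcaf, Nt5e 3.16 and Adora2b 2.57 in icaf, while 5 genes fell below 0 past the threshold in m2cafpos against m2cafneg.

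Among the adenosine receptors, Adora2a and Adora1 had their highest means in vcaf and Adora2b in icaf. Adora2a (ENSMUSG00000020178, GRCm38 chr10:75316877-75334784, plus strand), a receptor known for relaxing vessels and restraining immune cells, stood at 30.5, 12.9 and 22.5 CPM in vcaf, 0.646, 1.26 and 0.990 in icaf, 0.163, 0.408 and 0.228 in m2cafpos and 1.52, 0.787 and 1.25 in m2cafneg. The vcaf libraries lay above all 9 others, and the m2cafpos libraries held only 9, 22 and 10 reads. The log2 fold change in vcaf against the other 3 was 3.64 ± 0.22 (limma adjusted p = 3.88e-08), and since 1 CPM is added before the logarithm it understates the ratio, which edgeR put at 4.61 on the log2 scale. With 4 CPM added instead it was 2.38. In m2cafpos against m2cafneg it was -0.78 ± 0.27 (adjusted p = 0.0496), a call that ended without the filter, with a filter of 5 CPM, under TMM and median-of-ratios scaling, with 4 CPM added and without any of 9 single libraries (adjusted p 0.0011 to 0.308 over all alternatives). Vcaf also led in pericyte and endothelial markers. Endothelial cells are known to carry Adora2a, and the endothelial markers summed to means of 916 CPM in vcaf, 213 in icaf, 50.8 in m2cafpos and 192 in m2cafneg, while Adora2a averaged 21.97 ± 8.81, 0.965 ± 0.307, 0.266 ± 0.127 and 1.19 ± 0.373 CPM in the same order. Their part in the result was not tested.

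Adora1 (ENSMUSG00000042429, GRCm38 chr1:134199223-134235431, minus strand) stood at 4.02, 8.21 and 12.96 CPM in vcaf, 1.25, 1.02 and 1.76 in icaf, 0.903, 0.519 and 2.05 in m2cafpos and 4.48, 4.66 and 7.52 in m2cafneg. The vcaf and m2cafneg libraries overlapped with each other and lay above icaf and m2cafpos, which also overlapped. The log2 fold change was 1.46 ± 0.29 in vcaf against the other 3 (limma adjusted p = 0.00086, 0.89 with 4 CPM added) and -1.64 ± 0.36 in m2cafpos against m2cafneg (adjusted p = 0.00766). In icaf against both m2caf populations it was -0.65 ± 0.31 and did not pass (adjusted p = 0.142), except with the mouse as a block (adjusted p = 0.0295, range over all alternatives 0.0295 to 0.343). The summed epithelial, macrophage, Schwann and mast cell markers given above were high and low in the same populations. Of the 12 epithelial markers, 12 were higher in vcaf than in the mean of the others (53.3% of all genes tested). In m2cafpos, 11 were lower than in m2cafneg (22.6%). These counts were 9 and 9 for 10 macrophage markers tested, 5 and 4 for 6 of Schwann cells and 1 and 2 for 3 of mast cells and basophils. The part of such cells in the Adora1 values was not tested. Adora1 also shares 1162 exon bases, 20.1% of its own, with Mybph on the opposite strand, which reached at most 1.25 CPM in a library.

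Adora2b (ENSMUSG00000018500, GRCm38 chr11:62248984-62266453, plus strand), the receptor of lower affinity for adenosine, stood at 16.5, 10.1 and 19.4 CPM in vcaf, 104, 134 and 98.3 in icaf, 19.2, 16.04 and 18.1 in m2cafpos and 20.03, 20.1 and 14.7 in m2cafneg. The icaf libraries lay above all 9 others, which overlapped with each other. The log2 fold change was 2.57 ± 0.18 in icaf against both m2caf populations (limma adjusted p = 1.51e-06) and from 2.43 to 2.65 when single libraries were left out. In vcaf against the other 3 it was -1.11 ± 0.17 (adjusted p = 0.000154). On the deposited scale, vcaf against m2cafpos (-0.24 ± 0.21, adjusted p = 0.32) and against m2cafneg (-0.27 ± 0.21, adjusted p = 0.325) did not pass. Vcaf was called lower than m2cafpos under TMM (-0.75, adjusted p = 0.0128) and median-of-ratios scaling and by edgeR and DESeq2 (adjusted p 0.00498 to 0.959 over all alternatives). Against m2cafneg, the range was 0.0976 to 0.951. Between m2cafpos and m2cafneg the value was -0.027 ± 0.21 (adjusted p = 0.938, 95% interval -0.49 to 0.43), and 0.22 under TMM scaling. In icaf, where Adora2b was highest, the epithelial, macrophage, Schwann and mast cell sums averaged below those of vcaf and m2cafneg, while the endothelial sum averaged 213 CPM, against 916 in vcaf and 192 in m2cafneg. Their part in the Adora2b values was not tested.

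Per kilobase of exon, Adora2b made up 49.1% ± 3.41 of the 3 receptor transcripts in vcaf, 99.1% ± 0.224 in icaf, 97.1% ± 1.16 in m2cafpos and 87.6% ± 4.67 in m2cafneg (SD, n = 3 each). Adora2a made up 41.8% ± 7.94 in vcaf and at most 3.50% ± 1.16 elsewhere, in m2cafneg. By this measure, vcaf was the population whose receptor transcripts were shared between Adora2a and Adora2b, while Adora2b led in the other 3. The near-even split rests on dividing by exon length, 3062 bases for Adora2a and 1845 for Adora2b. In CPM, Adora2a lay above Adora2b in every vcaf library (30.5, 12.9 and 22.5 against 16.5, 10.1 and 19.4). The remaining adenosine receptor gene, Adora3, stayed at or below 0.185 CPM in every library, under the filter.

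**Figure D3:**
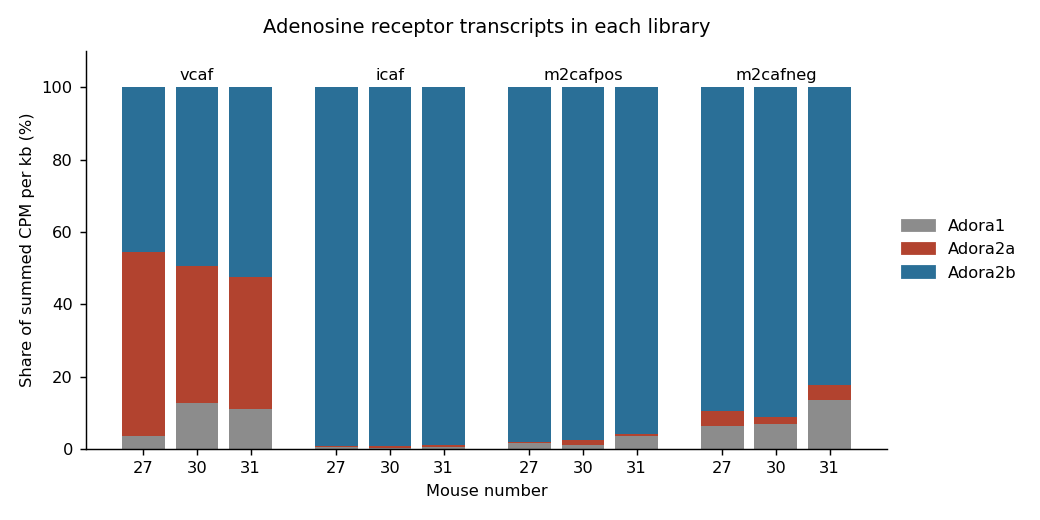
Share of Adora1, Adora2a and Adora2b in the summed CPM per kb of the 3 receptor genes (%), 1 bar per library, labelled by mouse. Adora2a takes 36.5% to 50.9% of the bar in vcaf, and Adora2b takes at least 82.3% in every library of the other populations.

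Upstream sequences are shown for Entpd2 and Adora2b, which both peaked in icaf, and for Enpp1, which was lowest there. Each run is the 250 bases before the RefSeq start on GRCm38.p6, on the gene's strand. Nt5e, which also peaked in icaf, is not shown. RefSeq windows were found for 8 of the 9 genes. Those of Nt5e (chr9:88327359-88327608) and Enpp3 (chr10:24836196-24836445) lie inside the gene spans given above, past the start of the span. So does 1 of 2 windows each of Entpd1 and Adora1. Capitals mark ACGTG or its reverse complement CACGT, the core bound by hypoxia-inducible factors, of which NT5E and ADORA2B are known targets in human cells, and GGGCGG or CCGCCC, the GC box.
Entpd2, chr2:25395624-25395873, plus strand: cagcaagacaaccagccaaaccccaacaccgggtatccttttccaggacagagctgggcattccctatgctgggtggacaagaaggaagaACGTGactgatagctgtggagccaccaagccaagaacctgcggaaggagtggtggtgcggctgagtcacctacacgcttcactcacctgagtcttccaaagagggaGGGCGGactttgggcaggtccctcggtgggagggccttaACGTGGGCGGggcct
Enpp1, chr10:24712160-24712409, minus strand: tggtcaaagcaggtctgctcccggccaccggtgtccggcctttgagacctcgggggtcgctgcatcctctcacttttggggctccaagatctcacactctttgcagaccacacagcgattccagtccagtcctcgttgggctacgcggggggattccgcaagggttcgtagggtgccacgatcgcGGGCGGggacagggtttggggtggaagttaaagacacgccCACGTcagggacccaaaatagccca
Adora2b, chr11:62248734-62248983, plus strand: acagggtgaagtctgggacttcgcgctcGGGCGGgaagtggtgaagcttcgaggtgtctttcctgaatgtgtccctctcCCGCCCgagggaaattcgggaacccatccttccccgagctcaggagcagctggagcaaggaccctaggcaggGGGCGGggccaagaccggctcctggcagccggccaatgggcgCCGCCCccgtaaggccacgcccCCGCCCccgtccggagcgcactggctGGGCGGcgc
The ACGTG core occurred 2 times in the Entpd2 window, 1 of them sharing a base with a GC box, 1 time in the Enpp1 window and 1 time in 1 of 2 Adora1 windows, and was not in the windows of the other 5 genes. Of 32851 windows of this length in the RefSeq table, 16.6% held it on either strand. The GC box occurred 6 times in the Adora2b window, 4 times in that of Nt5e, 3 times in 1 of 2 Adora1 windows, 2 times in that of Entpd2, 1 time each in those of Enpp1 and Ada, and not in those of Entpd1 and Enpp3, against 32.7% of all windows with at least 1. The cyclic AMP response element TGACGTCA, in 1.55% of all windows, was in none of the 8. These matches describe the letters and not binding.

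Over the 6 pairs of populations, 35 of 54 gene-by-pair differences passed the test. Of all genes tested, 46.1% were higher and 13.9% lower in vcaf than in icaf (59.9% in either direction), 55.5% and 12.4% in vcaf against m2cafpos (67.9%), and 26.6% and 11.3% in vcaf against m2cafneg (37.9%). In icaf, 15.0% were higher and 8.86% lower than in m2cafpos (23.9%), and 8.77% and 20.9% than in m2cafneg (29.7%). When the populations were ordered by level for each gene, 11 of 27 steps between neighbours passed. Other genes were not ordered in this way, so the count cannot be called high or low. Each population led for some gene: vcaf for Adora1 and Adora2a, icaf for Entpd2, Nt5e and Adora2b, m2cafpos for Ada, and m2cafneg for Entpd1, Enpp1 and Enpp3. The leads of Adora1, Enpp1, Enpp3 and Ada over the next population did not pass in the main fit. That of Enpp3 passed with the mouse as a block (icaf against m2cafneg -0.41 ± 0.20, adjusted p = 0.149, and 0.0398 with the block, range over all alternatives 0.0398 to 0.401). The lead of Ada passed under TMM and median-of-ratios scaling and by edgeR and DESeq2 (adjusted p 0.0151 to 0.608 over all alternatives). M2cafpos had the lowest mean for Nt5e, Enpp3, Adora1 and Adora2a. On log2(CPM + 1), the widest pairwise differences were those of Nt5e in icaf against m2cafpos (4.31 ± 0.44, limma adjusted p = 2.2e-05) and of Adora2a in vcaf against m2cafpos (4.11 ± 0.27, adjusted p = 1.18e-07). As ratios of mean CPM their order was reversed, at 26.1 for Nt5e and 82.6 for Adora2a. The added 1 CPM shrinks Adora2a more, which averaged 0.266 CPM in m2cafpos. Against icaf, vcaf was lower for Nt5e (-3.09 ± 0.44, adjusted p = 9.05e-05) and Adora2b (-2.82 ± 0.21, adjusted p = 3.41e-07) and higher for Enpp1 (1.21 ± 0.39, adjusted p = 0.018), the last lost without the filter, under TMM and median-of-ratios scaling, by edgeR and DESeq2 and without the vcaf library of mouse 27 or the icaf library of mouse 30, whose omission left 0.80 (adjusted p 0.000229 to 0.125 over all alternatives).

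Across the 12 libraries, Enpp1 and Ada were the most alike of the 9 genes (Pearson r of log2 values 0.89), followed by Nt5e and Adora2b (0.79), and Entpd2 and Adora2a the most opposed (-0.84). These values, like those that follow, describe 12 libraries from 3 mice that share populations, and carry no test. The genes most like each member, among those averaging at least 5 CPM, were Os9 (0.92), Angptl7 (0.92), Fam180a (0.90) for Entpd1, Best1 (0.98), Prrg3 (0.98), C1ra (0.97) for Entpd2 and Fitm2 (0.96), Pxn (0.95), Gprc5b (0.95) for Nt5e. They were Slc19a1 (0.95), Cul1 (0.95), Fcgr2b (0.95) for Enpp1, Snx14 (0.97), H2-D1 (0.96), Ormdl2 (0.95) for Enpp3 and Col11a1 (0.96), Slc20a1 (0.95), Lama1 (0.93) for Ada. For the receptors they were Slc25a10 (0.99), Tbc1d4 (0.98), Acsl1 (0.98) for Adora1, Inpp5b (0.99), Art3 (0.98), Ephx3 (0.98) for Adora2a and Zbp1 (0.98), Smpd3 (0.97), Ptx3 (0.97) for Adora2b.

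The wider pathway was followed in 57 further genes, of which 40 passed the filter. In vcaf against the other 3 populations, 15 were higher (37.5%, against 53.3% of all genes tested), 13 lower (32.5%, against 14.2%) and 12 did not pass (median log2 fold change 0.16, against 0.38 for all genes tested), and with TMM scaling 10 were higher and 18 lower. In icaf against both m2caf populations, 7 were higher (17.5%, against 12.1%) and 10 lower (25%, against 14.2%; median -0.12, against -0.01). In m2cafpos against m2cafneg, 1 was higher (2.5%, against 3.51%) and 17 lower (42.5%, against 22.6%; median -0.40, against -0.23), and with TMM scaling 3 and 13.

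**Figure D4:**
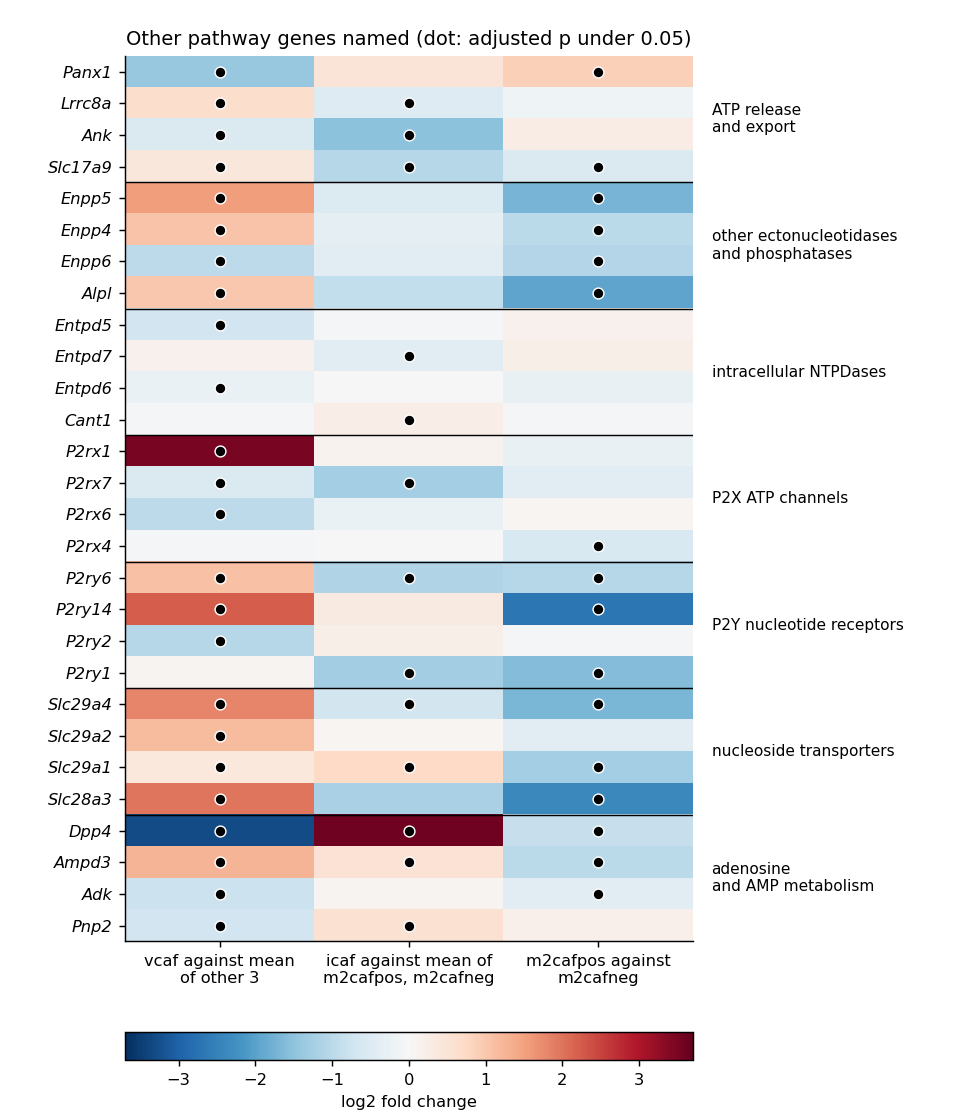
Log2 fold changes of 28 further pathway genes (rows, grouped by role) in the 3 main comparisons (columns), blue below 0 and red above. Dots mark an adjusted p under 0.05 by limma. P2rx1 and P2ry14 are higher in vcaf, Dpp4 is higher in icaf, and Panx1 is the 1 gene marked higher in m2cafpos than in m2cafneg.

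Of the 6 genes of ATP release and export, 4 were tested. Panx1, a channel that lets ATP out of cells, averaged 3.53 ± 0.968 CPM in vcaf, 13.98 ± 2.46 in icaf, 13.5 ± 2.06 in m2cafpos and 6.94 ± 1.46 in m2cafneg. It was lower in vcaf (-1.41 ± 0.17, limma adjusted p = 2.07e-05) and was the 1 pathway gene called higher in m2cafpos than in m2cafneg by limma without the mouse block (0.88 ± 0.21, adjusted p = 0.0111), while 2 were with it and 3 with TMM scaling. Lrrc8a, the obligate subunit of volume-regulated anion channels, was higher in vcaf (0.64 ± 0.08, adjusted p = 3.14e-05) and lower in icaf (-0.48 ± 0.09, adjusted p = 0.0012). Ank, a membrane protein of pyrophosphate and ATP export, was lower in icaf than in the mean of both m2caf populations (-1.52 ± 0.20, adjusted p = 0.000135), as Enpp1 was. Slc17a9, the vesicular nucleotide transporter, was also lower there (-1.04 ± 0.14, adjusted p = 0.000198).

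Of 10 other ectonucleotidases and phosphatases, 7 were tested, and 5 of them were lower in m2cafpos than in m2cafneg, where 22.6% of all genes tested were lower (8.96% with TMM scaling). Enpp5 averaged 56.2 ± 18.9 CPM in vcaf, 14.3 ± 4.93 in icaf, 10.9 ± 3.55 in m2cafpos and 38.1 ± 10.9 in m2cafneg and was lower in m2cafpos than in m2cafneg (log2 fold change -1.72 ± 0.30, limma adjusted p = 0.00319). Enpp4, an enzyme that cleaves dinucleotides, gave -0.996 ± 0.23 (adjusted p = 0.0101), the phosphatase gene Alpl -1.95 ± 0.41 (adjusted p = 0.00681), and Enpp6, a choline phosphodiesterase gene of at most 3.93 ± 1.27 CPM on average, -1.09 ± 0.26 (adjusted p = 0.0107), which edgeR and DESeq2 did not call. Enpp5 (1.56 ± 0.25) and Enpp4 (1.06 ± 0.19) were higher in vcaf at adjusted p of 0.000184 and 0.000408. Their high and low populations were those of the epithelial, macrophage, Schwann and mast cell marker sums, whose part was not tested. Against m2cafneg alone, 0 of the 7 genes tested were higher in vcaf (26.6% of all genes tested). Among the 6 NTPDases and related enzymes inside the cell, Entpd5 was lower in vcaf (-0.71 ± 0.11, adjusted p = 0.000201) and Entpd7 lower in icaf (-0.39 ± 0.10, adjusted p = 0.0142), a call that did not hold without the icaf library of mouse 30. Entpd6 in vcaf (-0.26 ± 0.10, adjusted p = 0.0409) and Cant1 in icaf (0.25 ± 0.08, adjusted p = 0.0426) passed by small margins, which 9 and 7 of the 12 single-library omissions ended, and Entpd6 moved to -0.15 without the vcaf library of mouse 30 and to -0.39 without that of mouse 31.

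Of 7 P2X channels that ATP opens, 5 were tested. P2rx1, the channel of sympathetic control of smooth muscle, stood at 9.59, 21.00 and 9.55 CPM in vcaf, and at most 0.653 in the 3 icaf, 0.144 in the 3 m2cafpos and 1.03 CPM in the 3 m2cafneg libraries. All vcaf libraries lay above all others (log2 fold change 3.51 ± 0.27, limma adjusted p = 3.95e-07). P2rx7, the channel opened by high ATP that drives inflammasome activation in macrophages, averaged 20.9 ± 5.62 CPM in vcaf, 16.8 ± 5.08 in icaf, 35.7 ± 8.27 in m2cafpos and 47.8 ± 6.79 in m2cafneg and was lower in icaf (-1.27 ± 0.20, adjusted p = 0.000568). P2rx6, which averaged 0.409 ± 0.358 CPM in vcaf, 1.41 ± 0.362 in icaf, 2.02 ± 0.921 in m2cafpos and 1.81 ± 0.434 in m2cafneg, was lower in vcaf (-0.97 ± 0.20, adjusted p = 0.00119). P2rx4 was lower in m2cafpos than in m2cafneg (-0.55 ± 0.13, adjusted p = 0.00913), a call that TMM and median-of-ratios scaling, edgeR and DESeq2 each ended.

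Of 7 P2Y receptors, 5 were tested and 4 were lower in m2cafpos than in m2cafneg, a comparison in which 22.6% of all genes tested were lower (8.96% with TMM scaling). P2ry14, the receptor for UDP-glucose, averaged 35.95 ± 5.99 CPM in vcaf, 8.30 ± 2.55 in icaf, 2.17 ± 1.91 in m2cafpos and 24.7 ± 26.5 in m2cafneg, the last with the high library of mouse 30. It was higher in vcaf (2.24 ± 0.47, limma adjusted p = 0.00127) and lower in m2cafpos than in m2cafneg (-2.69 ± 0.58, adjusted p = 0.00728). P2ry6, the UDP receptor, was higher in vcaf than in the mean of the others (1.09 ± 0.23, adjusted p = 0.00114). It was lower in icaf than in the mean of both m2caf populations (-1.12 ± 0.24, adjusted p = 0.0042). P2ry2, which answers to ATP and UTP, was lower in vcaf (-1.04 ± 0.23, adjusted p = 0.00164). P2ry1, the ADP receptor, was lower in icaf (-1.29 ± 0.26, adjusted p = 0.00278) and lower in m2cafpos than in m2cafneg (-1.60 ± 0.30, adjusted p = 0.00399), at levels of at most 10.9 CPM. Pair by pair, 0 of the 5 receptors were higher in vcaf than in m2cafneg (26.6% of all genes tested). In icaf against m2cafpos, 0 of them were called in either direction (23.9%).

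Of 7 nucleoside transporters, which carry adenosine across the membrane, 5 were tested and 4 were higher in vcaf, beside 53.3% of all genes tested. Against m2cafneg alone, 2 of the 5 were higher in vcaf, beside 26.6% of all genes tested. Among the 4, the call of Slc29a1 ended under TMM and median-of-ratios scaling, by edgeR and DESeq2, without the filter and without the vcaf library of mouse 31, whose omission left 0.22 (adjusted p = 0.17) of 0.38 ± 0.13. Slc29a1 (ENT1), an equilibrative transporter, averaged 262 ± 56.3 CPM in vcaf, 283 ± 52.7 in icaf, 107 ± 4.54 in m2cafpos and 259 ± 35.9 in m2cafneg. It was higher in icaf than in the mean of both m2caf populations (0.75 ± 0.14, limma adjusted p = 0.00197). Against m2cafneg alone, 0 of the 5 transporters were called higher in icaf (8.77% of all genes tested). Slc29a1 was lower in m2cafpos than in m2cafneg (-1.25 ± 0.16, adjusted p = 0.00106). Slc29a4 (1.79 ± 0.19, adjusted p = 7.4e-06) and Slc29a2 (1.18 ± 0.14, adjusted p = 2.05e-05) were higher in vcaf. So was the concentrative transporter gene Slc28a3 (1.99 ± 0.47, adjusted p = 0.00261), which averaged 176 ± 92.03 CPM in vcaf, 25.9 ± 15.6 in icaf, 25.3 ± 15.9 in m2cafpos and 132 ± 68.9 in m2cafneg. Its levels were high where the epithelial, macrophage, Schwann and mast cell sums were high, whose part was not tested.

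Of 13 genes of adenosine and AMP metabolism, 10 were tested. Dpp4 (CD26), a peptidase that in human cells holds ADA on the outer membrane, stood at 4.76, 5.93 and 10.1 CPM in vcaf, 381, 459 and 361 in icaf, 18.2, 31.5 and 22.8 in m2cafpos and 42.1, 61.5 and 31.4 in m2cafneg. All icaf libraries lay above all others, with a log2 fold change of 3.596 ± 0.24 (limma adjusted p = 9.81e-07), and vcaf was lower than the other 3 (-3.31 ± 0.23, adjusted p = 1.3e-07). Icaf had the highest level of Dpp4 and, on the deposited scale, the lowest mean level of Ada. Ada in vcaf against icaf did not pass (0.33 ± 0.16) and turned to -0.053 under TMM scaling. Whether Dpp4 holds Ada in these mouse cells was not tested. Adk, which phosphorylates adenosine inside the cell, averaged 60.3 ± 4.90 CPM in vcaf, 110.2 ± 11.6 in icaf, 90.3 ± 13.1 in m2cafpos and 118 ± 15.5 in m2cafneg and was lower in vcaf (-0.79 ± 0.11, adjusted p = 5.51e-05). Ampd3, an AMP deaminase gene, was higher in vcaf (1.25 ± 0.16, adjusted p = 3.22e-05). Pnp2, a close copy of Pnp whose reads may not be separable from it, was lower in vcaf (-0.71 ± 0.13, adjusted p = 0.000396).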

How the data were processed

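RNA was extracted from the sorted cells with an RNeasy Micro kit and sequenced, per the labels' protocols. Software named in the submitters' processing notes was bcl2fastq and DRAGEN, with mm10 as the build, and the counter, annotation and strand setting were not given. The deposited table, made by the authors, holds CPM for 12 libraries on 55774 lines, of which 287 repeated others with equal values. Every value was a whole number of reads within 0.001 reads (100% whole), so depths and reads were recovered from the CPM steps. A single read was worth 0.0181 to 0.0228 CPM, and 3 reads, a floor for counting error only, 0.0542 to 0.0683 CPM. The library titled vacf was read as vcaf.

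A gene was kept where 3 or more libraries had 1 CPM or more (15456 genes). Log2(CPM + 1) was fitted with limma 3.58.1 (R 4.3.3, trend on) with 4 population means over all 12 libraries, and p-values were adjusted by Benjamini-Hochberg. edgeR 4.0.16 and DESeq2 1.42.0 on the recovered reads, TMM and median-of-ratios scaling, pseudocounts of 0.25 and 4 CPM, no filter, a filter of 5 CPM, the mouse as a block and leaving out each library were alternatives. Mouse numbers in the labels name the animal: deviations from population means correlated at a median r of 0.29 in 18 same-mouse pairs (0.0843 to 0.452) and -0.15 in 36 other pairs. The replicates are 3 separate mice. Gene positions and union exon lengths came from GENCODE M21 (GRCm38) and upstream windows from RefSeq. Scripts were tested on simulated data. The 9 genes, the pathway lists and the marker lists were chosen with earlier results of these data known. Named genes were the 9, up to 4 of each pathway subgroup with the smallest adjusted p among those past the threshold in a main comparison, Adora3, the 3 genes most like each of the 9, the genes of the sort, and the 2 most abundant of each marker list. Npdc1 and Mybph, outside this rule, were named because they overlap 2 of the 9.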

Additional observations from a re-analysis of the deposited data

How the results depend on the processing

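Of 72 single-gene results, 48 passed the threshold and 39 of these passed under every setting tried. Over 1512 values by result and setting, 1390 kept direction and side of the threshold, 55 lost the call, 44 gained one and 23 changed sign, 0 of them of a result past the threshold. The sign changes under TMM, median-of-ratios scaling, edgeR and DESeq2, in that order, were Enpp3 in vcaf against the other 3 (-0.13, -0.13, -0.10 and -0.10), Adora2b in m2cafpos against m2cafneg (0.22, 0.25, 0.21 and 0.25) and Ada in vcaf against icaf (-0.053, -0.061, -0.050 and -0.057). Enpp1 in m2cafpos against m2cafneg turned to 0.0027 with TMM and 0.035 with median-of-ratios scaling. Leaving out single libraries gave ranges across 0 for Entpd1 (-0.43 to 0.13) and Enpp3 (-0.31 to 0.10) in vcaf against icaf, Adora2b in vcaf against m2cafpos (-0.43 to 0.011), Adora1 in icaf against m2cafpos (-0.051 to 0.45), and Adora2b (-0.17 to 0.044) and Enpp1 (-0.73 to 0.0066) in m2cafpos against m2cafneg. With median-of-ratios scaling, 23.6% of all genes were higher and 24.6% lower in vcaf against the other 3, and 8.79% and 8.28% in m2cafpos against m2cafneg. The count of the 9 genes higher in m2cafpos became 1 under TMM, median-of-ratios scaling, edgeR and DESeq2. All genes called in m2cafpos against m2cafneg numbered 4041, 2617 without the filter, 2580 with TMM, 2638 with median-of-ratios scaling, 2088 with edgeR and 2241 to 4219 when single libraries were left out. edgeR called 6913 genes in vcaf against m2cafpos (limma 10492) and 3758 in vcaf against m2cafneg (limma 5861), and leaving out single libraries gave 2541 to 4273 in icaf against both m2caf populations (4063 with all). The causes were not tested. With the mouse as a block for pairing, 3 of the 9 genes were higher and 4 lower in vcaf, 4 and 4 in icaf, and 0 and 5 in m2cafpos. By it, Adora1 in icaf (adjusted p = 0.0295) and Enpp3 in vcaf (0.0474), against m2cafneg (0.015) and in icaf against m2cafneg (0.0398) gained a call, as did Nt5e in vcaf against m2cafneg (0.0417), and it changed no other call of the 9. Depth limits Adora2a in m2cafpos, with 9 to 22 reads a library, and 3 mice limit every interval.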
